A study of Drosophila melanogaster with 17 samples.

Results

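The 10 genes described here encode proteins that bind or regulate the tracks of the neuronal cytoskeleton, and parts of its motors. They were chosen by name in the table of counts, and all 10 were found among the 13872 genes listed. The microtubule-binding proteins are futsch, tau and stai, the actin-binding proteins are chic and tsr, the kinesin subunits are Khc, Klc and unc-104, and the minus-end motor is represented by Dhc64C and Gl. The libraries came from pools of central nervous system (CNS) dissected from larvae late in the third instar of Drosophila melanogaster. All larvae carried elavGAL4, a driver that switches on transgenes in postmitotic neurons. X7/C24 larvae carried the driver, a UAS-Smn RNAi C24 hairpin and the Smn X7 deletion on one chromosome, so that neurons had both the hairpin and a single gene copy while other cells had only the loss of a copy. C24 larvae carried the driver and the hairpin with wild type Smn genes, and WT larvae carried the driver with an empty UAS-PWIZ insertion. There were 4 X7/C24, 7 C24 and 6 WT libraries, each of a separate pool, so that p-values measure the spread between pools of larvae.

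Axons are supplied along microtubules. Kinesins walk outwards with vesicles and mitochondria, and dynein, held on its cargo by dynactin, walks back towards the cell body. Microtubule-associated proteins of the tau and MAP1B kind stabilise the tracks, stathmin binds free tubulin, and profilin and cofilin set the balance between actin monomers and filaments in growth cones and nerve terminals. Smn is needed for the assembly of splicing particles, its loss in humans causes spinal muscular atrophy, and the human protein binds profilin.

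The libraries held between 7883183 and 28339670 read pairs on genes, with a median of 18432613, and a total of 3 counts corresponded to 0.106 to 0.381 CPM (counts scaled to a common library size). Such limits cover counting error only, whereas the 95% intervals given for fold changes come from the spread between pools. Smn was checked first. It stood at 27.7, 27.1, 27.4 and 40.0 RPKM (CPM per kilobase of exon) in the X7/C24 libraries, at 49.0, 58.4 and 49.1 in C24_5, C24_6 and C24_7, and at 59.8, 59.7 and 56.3 in WT_4, WT_5 and WT_6. The pilot libraries lay between 71.6 and 512 RPKM. The log2 fold change was -1.15 ± 0.0558 (SE, adjusted p = 1.05e-05) for X7/C24 over WT, -0.99 ± 0.0948 (SE, adjusted p = 0.000782) for X7/C24 over C24 and -0.16 ± 0.0952 (SE, adjusted p = 0.741) for C24 over WT. X7/C24 was below both other genotypes without overlap in these rounds, while C24_6 lay close to WT. Reads of the hairpin were not separated from those of Smn in the counts used here. WT_1, WT_2 and C24_1 stood apart from all other libraries. The summed level of 14 neuronal marker genes was 820, 347 and 125 CPM in these libraries, 6388 in X7/C24_4 and 7252 to 12758 in the other 13 libraries. elav, repo, Pen and Usp7 are used as markers of neurons, glia, imaginal discs and all cells. elav reached only 3.12 to 25.7 RPKM in these libraries, against 136 to 246 in the others, repo 6.87 to 21.0 against 39.8 to 52.6, and Usp7 5.79 to 51.8 against 71.6 to 113, while Pen stood at 138 to 232 against 133 to 175.

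All 10 genes were detected in every library. The comparisons used X7/C24_1 to X7/C24_3, as the study did, and the C24 and WT libraries of the second round. Together the genes took 0.576 to 0.58% of the counts in X7/C24_1, X7/C24_2 and X7/C24_3, 0.5 to 0.555% in the C24 libraries of the second round and 0.514 to 0.529% in the WT libraries of that round. In WT of the second round chic was the most abundant of the 10 per length, at 461 ± 59 RPKM (SD, n = 3), followed by tsr at 282 ± 27.9 and stai at 152 ± 15.4. The kinesin genes came next, with Klc at 114 ± 2.63, Khc at 104 ± 5.19 and unc-104 at 94.5 ± 4.65. Dhc64C had 59.1 ± 13.5, Gl 36.7 ± 2.78, futsch 24.8 ± 7.84 and tau 12.5 ± 0.693 RPKM. Neighbours in this order did not overlap between the 3 WT libraries, with the exception of Khc and unc-104. Profilin mRNA thus exceeded 99.4% of the genes tested over all libraries per length, and tau exceeded 41.6% of them.

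The genes lie on chromosomes X, 2L, 2R, 3L and 3R, with coordinates given here in the BDGP6 build, which is later than the build used for the alignment. futsch runs from 1409069 to 1453686 on the forward strand of X. chic (5972115 to 5981018, reverse strand) and stai (6100377 to 6124653, forward strand) lie on 2L, and tsr (24044453 to 24046805), Khc (16266960 to 16271971) and unc-104 (16751503 to 16772671) lie on the reverse strand of 2R. Klc (12746616 to 12750056) and Dhc64C (4807368 to 4825687) are on the reverse strand and Gl (13929387 to 13934656) is on the forward strand of 3L, and tau lies on the reverse strand of 3R from 27639886 to 27656996. Exons of the genes, merged over isoforms, differ widely in summed length, from 735 bases in tsr and 2065 bases in Klc to 14597 bases in Dhc64C and 23308 bases in futsch. Exons of other genes cover 7.51% of Klc, 5.09% of futsch, 2.08% of unc-104, 1.83% of tau, 0.816% of tsr and 0.267% of Dhc64C, and none of chic, Khc, stai or Gl. Read pairs that touch such stretches were not assigned to either gene by the counting mode used. Levels per length of Klc and futsch may thus be understated, by an amount that was not measured.

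**Figure D1:**
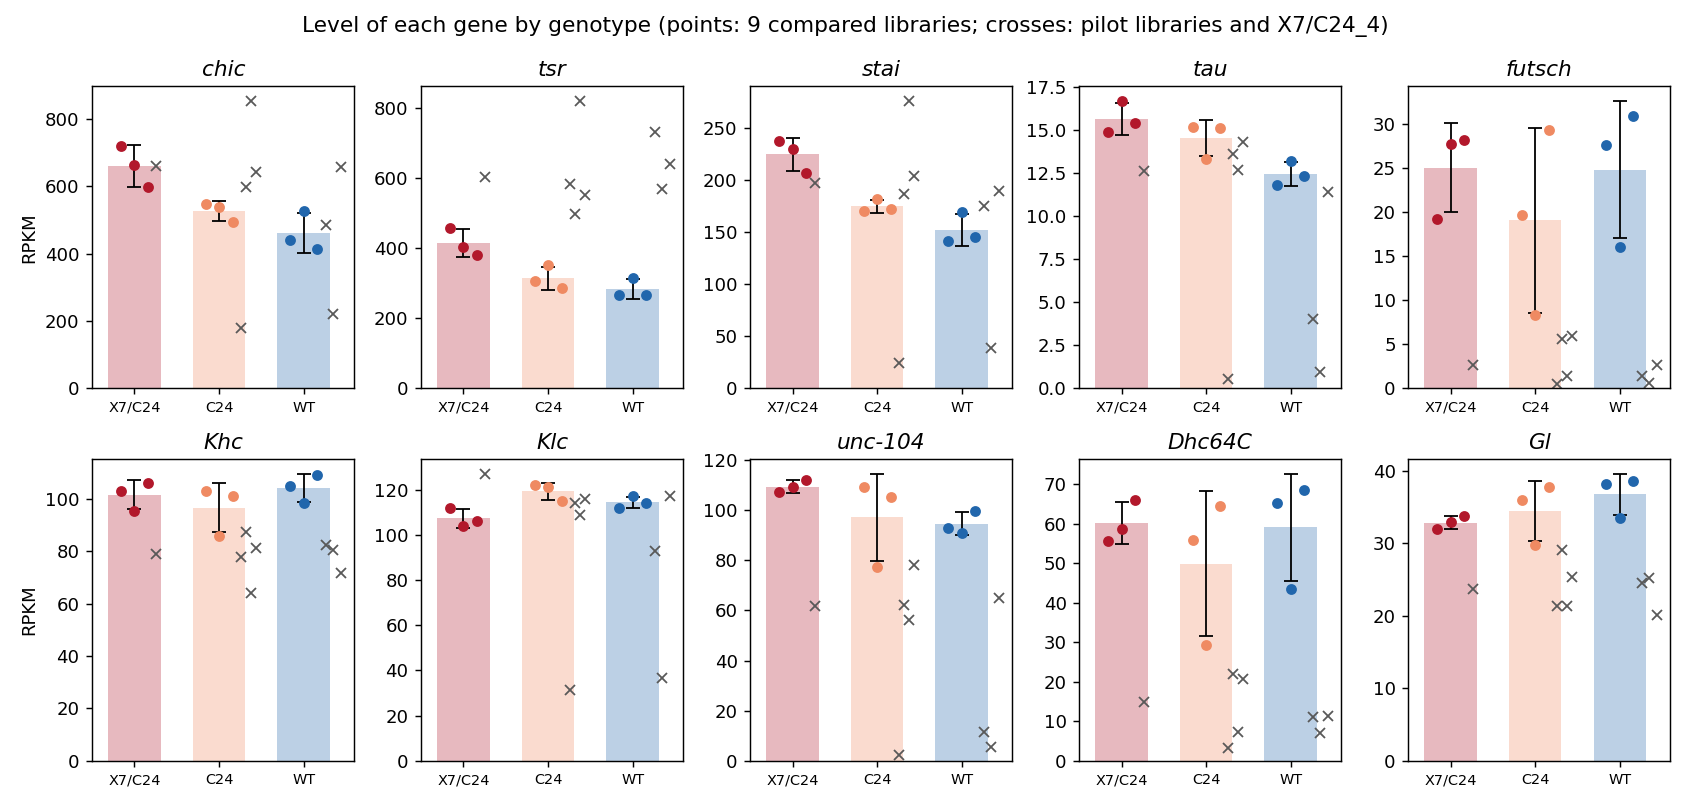
Level of the 10 genes (vertical axes, RPKM, from 0) in X7/C24, C24 and WT. Points are the 9 libraries compared, bars and error bars their mean and SD (n = 3 each), and crosses the pilot libraries and X7/C24_4. The X7/C24 points of chic, tsr and stai lie above all C24 and WT points, and those of futsch spread from 19.2 to 28.2 RPKM within the WT range of 16.0 to 30.9.

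In X7/C24, the genotype with the strongest loss of Smn, the actin-binding and tubulin-binding genes chic, tsr and stai were 1.38-fold to 1.42-fold higher than in WT, tau was higher by a smaller amount and Gl was lower. The motor genes Khc, Klc, unc-104 and Dhc64C and the MAP1B gene futsch did not pass the test. Among the 10 genes 4 were called higher and 1 lower by edgeR's quasi-likelihood test at an adjusted p under 0.05, where 42.3% of the 9657 genes tested were called, 21.2% in each direction. The 10 genes had a median log2 fold change of 0.06, against -0.00 over all genes tested. In 8 of the 10 genes the 3 X7/C24 and the 3 WT libraries did not overlap with the scaling of this fit, against 53.3% of all genes tested. The share of calls, 5 of the 10 genes, was close to that background. Pilot libraries without the deletion reached similar levels of chic and in part of stai. In WT_3, C24_2, C24_3 and C24_4 chic had 657, 599, 855 and 642 RPKM, against 598 to 722 in X7/C24_1 to X7/C24_3. There stai had 189, 186, 276 and 204 RPKM, against 207 to 237. X7/C24 was sequenced in a later round than WT, so that genotype and round cannot be told apart, and in whole tissue a change in the number of cells of a type cannot be told apart from a change in RNA per cell.

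chic encodes profilin, which binds actin monomers. It stood at 722, 665 and 598 RPKM in X7/C24_1, X7/C24_2 and X7/C24_3, against 440, 527 and 414 in WT_4, WT_5 and WT_6. The lowest X7/C24 library lay above the highest WT library. The log2 fold change was 0.46 ± 0.117 (SE), a 1.38-fold higher level (adjusted p = 0.0136). Levels in RPKM were scaled over all 17 libraries and fold changes over the 6 libraries of the fit, which places X7/C24 over WT ratios of RPKM higher by 0.06 on the log2 scale.

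tsr encodes cofilin, which severs and disassembles actin filaments. It had 458, 403 and 381 RPKM in X7/C24 and 266, 314 and 265 RPKM in WT, again without overlap. Its log2 fold change was 0.50 ± 0.101 (SE, adjusted p = 0.0054), 1.41-fold. stai encodes stathmin, which binds tubulin dimers and is required in Drosophila motor axons. Its level was 237, 230 and 207 RPKM in X7/C24, against 141, 169 and 145 RPKM in WT. The groups were separate, and the log2 fold change of 0.51 ± 0.0971 (SE, adjusted p = 0.00415) was the largest among the 10 genes in this comparison, at 1.42-fold.

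tau, a microtubule-binding protein of axons, had 14.9, 16.7 and 15.4 RPKM in X7/C24 and 11.8, 13.2 and 12.3 in WT. All X7/C24 libraries were above all WT libraries, with a log2 fold change of 0.28 ± 0.0684 (SE, adjusted p = 0.012). futsch, the Drosophila MAP1B that organises microtubules at the neuromuscular junction, had 19.2, 27.8 and 28.2 RPKM in X7/C24, against 27.6, 16.0 and 30.9 RPKM in WT. The lowest values of both groups lay far below the other libraries of their group, and the groups overlapped. The fitted log2 fold change of -0.04 had a 95% interval of -0.55 to 0.47 (adjusted p = 0.908), which leaves room for a change of futsch in either direction.

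Among the kinesin genes, unc-104, the kinesin-3 that carries synaptic vesicle precursors, had 107, 109 and 112 RPKM in X7/C24 and 92.7, 91.0 and 99.7 in WT. The groups did not overlap, but the log2 fold change of 0.15 (95% interval 0.03 to 0.28) missed the threshold after adjustment (adjusted p = 0.0552). Khc, the heavy chain of kinesin-1, had 103, 95.4 and 106 RPKM in X7/C24 and 105, 98.5 and 109 RPKM in WT, with a log2 fold change of -0.10 (95% interval -0.23 to 0.04, adjusted p = 0.216). Klc, the light chain that links kinesin-1 to cargo, had 112, 104 and 106 RPKM in X7/C24 and 112, 117 and 114 in WT. Its log2 fold change of -0.15 had a 95% interval of -0.28 to -0.02 and an adjusted p of 0.0629. Both subunits of kinesin-1 had negative values short of the threshold. With the scaling of the fit their X7/C24 libraries lay below the WT libraries, while the RPKM values of Khc overlap and those of Klc touch.

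The dynein heavy chain gene Dhc64C had 55.7, 58.7 and 66.1 RPKM in X7/C24 and 65.3, 43.6 and 68.4 RPKM in WT. WT_5 was the lowest of these libraries, as it was for futsch. The log2 fold change was -0.03 (95% interval -0.36 to 0.30, adjusted p = 0.895). Gl, the p150 subunit of dynactin that joins dynein to microtubules, had 31.9, 32.9 and 33.7 RPKM in X7/C24, against 38.1, 33.5 and 38.6 in WT. The RPKM values of X7/C24_3 and WT_5 cross, and with the scaling of the fit all X7/C24 libraries were lower. Gl fell by 0.22 ± 0.0547 on the log2 scale (SE, adjusted p = 0.0133), and was the one gene of the 10 called lower.

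These calls rested on few libraries. Without WT_4 only tsr and stai were called, 2 of the 10 genes, where 2846 genes were called in all, against 4087 with WT_4. chic (log2 fold change 0.43, adjusted p = 0.0594), tau (0.24, 0.0561) and Gl (-0.20, 0.0614) kept fold changes close to those above. With X7/C24_4 added none of the 10 genes was called, where 7.91% of all genes tested were called. The log2 fold changes were then 0.47 for stai (adjusted p = 0.0611), 0.66 for tsr (0.0673), 0.47 for chic (0.0817), -0.32 for Gl (0.158) and 0.21 for tau (0.254), with larger standard errors, such as 0.185 for tsr. Markers of several cell types were called between X7/C24 and WT as well, beside 42.3% of all genes, 21.2% in each direction. Of 14 neuronal markers 4 were higher and 0 lower in X7/C24 than in WT (median log2 0.14, summed level 11684 to 12758 CPM in X7/C24 and 9470 to 9581 CPM in WT), and of 10 glial markers 1 was higher and 4 were lower (1316 to 1524 against 1579 to 1599 CPM). All 6 hemocyte markers (149 to 300 against 43.4 to 63.4 CPM) and all 6 ring gland markers (676 to 1045 against 47.5 to 96 CPM) were higher in X7/C24_1 to X7/C24_3. In X7/C24_4 these sums were only 37.5 and 96.9 CPM. In the pilot libraries WT_3, C24_2, C24_3 and C24_4 they were 44 to 62.7 and 349 to 850 CPM. Of 10 imaginal disc markers 6 were higher and 0 lower (median log2 0.29, 874 to 894 against 724 to 777 CPM). Of 9 muscle markers tested 4 were higher and 0 lower (median log2 0.72, 97.9 to 130 against 61.2 to 87.4 CPM). X7/C24_4 had 576 CPM of the disc and 29.9 CPM of the muscle markers. The disc markers had only 605, 177 and 64.6 CPM in WT_1, WT_2 and C24_1, and whether they mark disc cells alone was not tested. No marker of these 6 lists was at 0 in either group. Of 3 midgut markers tested 0 were higher and 2 lower (median log2 -1.30). Of 6 salivary gland markers tested 0 were higher and 1 lower (-0.62), and of 7 fat body markers none was called (0.04). The part of all these cell types in the levels of the 10 genes was not tested.

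**Figure D2:**
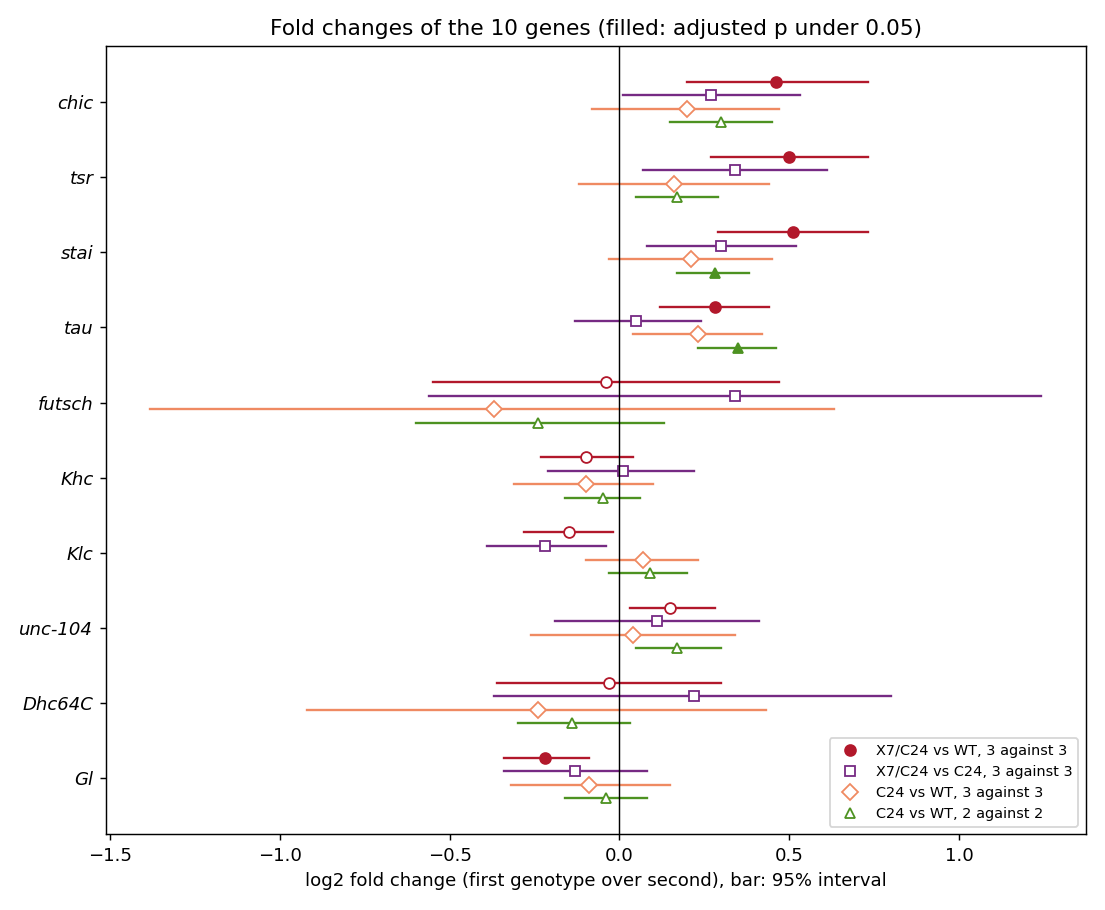
Log2 fold change (horizontal axis, first genotype over second) of the 10 genes in 4 comparisons, with 95% intervals as bars and filled symbols at an adjusted p under 0.05. In X7/C24 against WT the symbols of chic, tsr, stai, tau and Gl are filled, in C24 against WT those of tau and stai with 2 libraries a group, and the intervals of futsch are the widest.

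X7/C24 was also set against C24, from which it differs by the added deletion and by the sequencing round. In this comparison chic, tsr and stai had positive values and Klc a negative one, without overlap between the groups, but none of the 10 genes passed the threshold. Of the 9454 genes tested 13.5% were called, 7.59% as higher and 5.94% as lower, and 37.6% did not overlap, against 4 of the 10 genes. At an unadjusted p under 0.05 edgeR found 4 of the 10 genes, and 2822 of the 9454 genes tested. At the adjusted threshold DESeq2 called 1 of the 10, stai (adjusted p = 0.0231), and 1466 genes in all. limma-voom called 0 of the 10 and 1258 genes in all. The C24 libraries C24_5, C24_6 and C24_7 had 547, 540 and 494 RPKM of chic, 305, 350 and 285 of tsr and 170, 182 and 172 of stai. These values lay between those of X7/C24 and most of those of WT. The log2 fold changes of X7/C24 over C24 were 0.27 (95% interval 0.01 to 0.53) for chic, 0.34 (0.07 to 0.61) for tsr and 0.30 (0.08 to 0.52) for stai, with adjusted p-values of 0.158, 0.0921 and 0.0769.

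Klc had 122, 121 and 115 RPKM in C24, all above the X7/C24 libraries, with a log2 fold change of X7/C24 over C24 of -0.22 (95% interval -0.39 to -0.04, adjusted p = 0.0941). Khc differed by 0.01 (95% interval -0.21 to 0.22). tau (15.2, 13.3 and 15.1 RPKM in C24) differed by 0.05 (95% interval -0.13 to 0.24), Gl (35.9, 29.8 and 37.7) by -0.13 (-0.34 to 0.08) and unc-104 (109, 77.1 and 105) by 0.11 (-0.19 to 0.41). The low library of Gl and unc-104 was C24_6. It was also the lowest for Dhc64C (55.9, 29.2 and 64.4 RPKM) and futsch (19.7, 8.25 and 29.3 RPKM), whose log2 fold changes of 0.22 and 0.34 had intervals of -0.37 to 0.80 and -0.56 to 1.24. Without C24_6, 4 genes were called between X7/C24 and C24, where 28.2% of all genes tested were called. tsr (log2 fold change 0.44, adjusted p = 0.00838) and stai (0.34, 0.0129) were then higher, and Gl (-0.22, 0.0175) and Klc (-0.20, 0.0407) lower in X7/C24.

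In C24, where the hairpin alone acts in neurons, the same genes were set against WT within the second round. Of the 9394 genes tested 0.394% were called, and none of the 10 genes, by edgeR, DESeq2 or limma-voom. At an unadjusted p under 0.05 edgeR found 1 of the 10, tau, and 687 of the 9394 genes tested. The log2 fold change of tau was 0.23 (95% interval 0.04 to 0.42, unadjusted p = 0.0264, adjusted p = 0.589). With the scaling of the fit, tau was also the one gene of the 10 whose C24 libraries all lay above the WT libraries, against 13.6% of all genes without overlap. In RPKM, scaled over all 17 libraries, stai did so too, with its lowest C24 library at 170 and its highest WT library at 169. chic (0.20, 95% interval -0.08 to 0.47), stai (0.21, -0.03 to 0.45) and tsr (0.16, -0.12 to 0.44) had positive values, and futsch (-0.37, -1.38 to 0.63) and Dhc64C (-0.24, -0.92 to 0.43) had the widest intervals. The other genes lay between -0.10 for Khc and 0.07 for Klc, with intervals that reached no further than -0.32 for Gl and 0.34 for unc-104. This comparison and that of X7/C24 with WT share the WT libraries, so that their values are not independent of each other.

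C24_6 and WT_5, which the study left out of a second version of this comparison, had the lowest futsch and Dhc64C of their groups in the second round. Without them, 2.23% of 9590 genes were called between C24 and WT, 1.49% as higher and 0.74% as lower, and 2 of the 10 genes were called, both as higher. tau, at 15.2 and 15.1 RPKM in C24_5 and C24_7 and 11.8 and 12.3 in WT_4 and WT_6, was higher by a log2 fold change of 0.35 ± 0.051 (SE, adjusted p = 0.0255). stai, at 170 and 172 against 141 and 145 RPKM, was higher by 0.28 ± 0.047 (SE, adjusted p = 0.038). chic had 0.30 (95% interval 0.15 to 0.45, adjusted p = 0.0588). The libraries of 8 of the 10 genes did not overlap, against 53.6% of all genes tested. Leaving out 1 more library leaves 1 library in a group, which is assumed to vary like the other group. Such fits cannot decide how steady the calls are, so only fold changes are given. The log2 fold change ranged from 0.32 to 0.37 for tau, 0.26 to 0.29 for stai, 0.22 to 0.37 for chic and -0.55 to 0.02 for futsch. In a joint fit WT_5, C24_6 and X7/C24_1 to X7/C24_3 were added as a single group that mixes genotypes. None of the 10 genes was called there, with log2 fold changes of 0.34 for tau and 0.27 for stai. Standard errors were larger, at 0.0969 and 0.139. They hold differences between genotypes, so that this fit cannot decide how steady the calls are.

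Among libraries the levels of the longest genes varied far more than those of the others. The SD of futsch was 20.3% of its mean in X7/C24, 55.2% in C24 and 31.6% in WT (n = 3 each), and that of Dhc64C was 8.9, 36.9 and 22.8%. The same share was 17.9% or less for the other 8 genes in every group. The pilot libraries, sequenced first and with less cDNA than the second round, had 0.418 to 5.91 RPKM of futsch, below every library of the second round, and X7/C24_4 had 2.58 RPKM. tsr, the shortest of the 10, stood at 498 to 820 RPKM in the pilot libraries and at 602 in X7/C24_4, above all 9 libraries of the comparisons.

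In X7/C24_4 the differences from the WT mean followed the exon length of the genes in part. The log2 difference from the mean of WT_4, WT_5 and WT_6 was -3.21 for futsch, -1.96 for Dhc64C, -0.61 for unc-104, -0.63 for Gl and -0.40 for Khc. It was 0.02 for tau, 0.15 for Klc, 0.38 for stai, 0.53 for chic and 1.10 for tsr. tau departed from this order, as a gene with 7252 bases of exons that was near the WT mean. C24_3 had the same arrangement, from -4.15 for futsch to 1.55 for tsr. In WT_1, WT_2 and C24_1, the libraries with few neuronal transcripts, the log2 difference from that mean was -4.61 to -1.64 for tau and -5.35 to -3.02 for unc-104, while it was -0.42 to -0.34 for Khc and -0.78 to -0.54 for Gl.

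**Figure D3:**
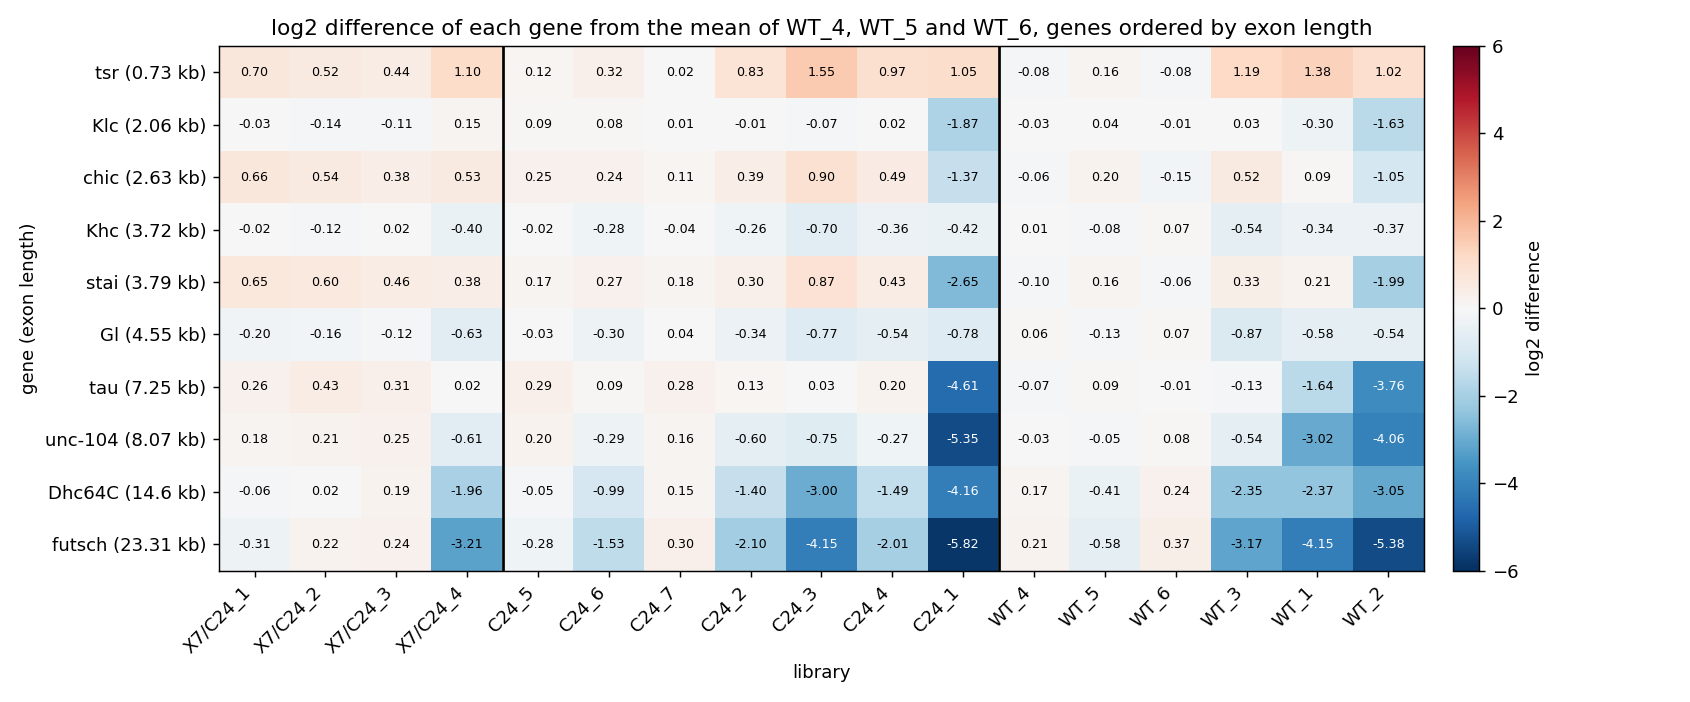
Log2 difference of each gene (rows, ordered by exon length in kilobases) from the mean of WT_4, WT_5 and WT_6 in each of the 17 libraries (columns, X7/C24, C24 and WT from left to right), with red above and blue below that mean. The bottom rows, futsch and Dhc64C, are blue in X7/C24_4 (-3.21 and -1.96), C24_6 (-1.53 and -0.99) and all pilot libraries, where tsr in the top row is red.

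The same libraries had low counts of long genes in general. A length index was taken for each library as the median log2 difference from the WT mean over 368 genes with at least 8 kilobases of exons, minus that over 3306 genes with less than 2 kilobases, the 10 genes being left out. It was -0.04 to 0.15 in X7/C24_1, X7/C24_2 and X7/C24_3 and -1.74 in X7/C24_4. In C24 it was -0.94 in C24_6, against -0.01 and 0.15 in C24_5 and C24_7, and in WT it was -0.26 in WT_5, against 0.11 and 0.14 in WT_4 and WT_6. The pilot libraries lay between -6.37 and -1.06. futsch and Dhc64C were low in the libraries with a low index, and the part of RNA quality or cDNA input in this was not tested.

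**Figure D4:**
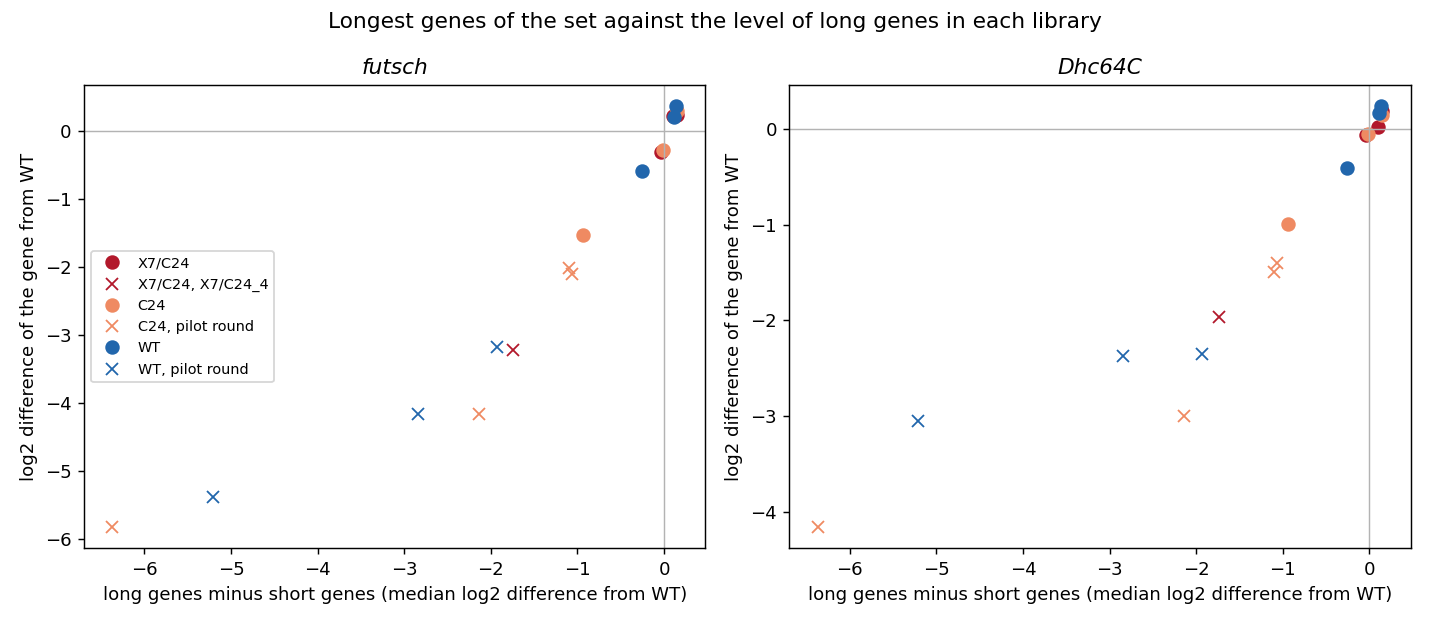
Log2 difference of futsch (left) and Dhc64C (right) from the WT mean in each of 17 libraries (vertical axes) against the length index of the library (horizontal axes, median log2 difference of long minus short genes). Points are the 9 libraries compared, crosses X7/C24_4 and the pilot libraries. C24_6 lies at an index of -0.94 with futsch at -1.53, and C24_1 at -6.37 with futsch at -5.82.

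Among the 10 libraries of the later rounds futsch, Dhc64C, Khc, unc-104 and Gl moved together, and so did chic, tsr and stai, which is a description with no test, since the points share libraries, depth and scaling. The correlation of log2 CPM was 0.99 between futsch and Dhc64C (Pearson, n = 10 libraries), and 0.92 between futsch and each of Khc, unc-104 and Gl. It was 0.95 between chic and stai, 0.88 between chic and tsr and 0.77 between tsr and stai. Between these groups of genes it ran from 0.11 for unc-104 and stai down to -0.90 for tsr and Gl. tau stood between them, with 0.71 to stai and 0.63 to unc-104. C24_6 and X7/C24_4, the 2 libraries of these rounds with the lowest length index, had the lowest futsch of these 10 libraries.

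Over all 17 libraries the gene most like futsch in log2 CPM was CG15828 (r = 0.995), and the one most like Dhc64C was Rbcn-3A (r = 0.997). For unc-104 it was Dap160 (0.999), for tau alpha-Man-I (0.998), for stai akirin (0.996), for Klc mnd (0.993), for chic ben (0.992), for tsr eIF-5A (0.986), for Khc Smg1 (0.983) and for Gl CG5931 (0.978). Where their exon length is known, the nearest genes of futsch, Dhc64C, tau and unc-104 have 13330, 11139, 6827 and 6395 bases of exons, and those of chic, Klc and stai have 2072, 2546 and 2633. These correlations include WT_1, WT_2 and C24_1, and nearest genes were not sought without them. Between pairs of the 10 genes the median correlation was 0.59 over all 17 libraries and -0.19 without those libraries.

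A smooth trend on exon length was then taken out of each library. In the comparison of X7/C24 with WT this moved the fold changes of the long genes and of tsr, the shortest. The log2 fold change of tsr went from 0.50 to 0.33 and that of futsch from -0.04 to -0.21, while those of chic, stai and Klc moved little. chic (log2 fold change 0.46, adjusted p = 0.00706), stai (0.48, 0.00374) and tsr (0.33, 0.0024) were higher and Gl (-0.26, 0.000969) was lower, as before. tau was no longer called (0.20, 0.103), and Klc became called as lower (-0.15, 0.0309). Between X7/C24 and C24 tsr (0.28, 0.0126) was then higher, and Gl (-0.23, 0.00552) and Klc (-0.21, 0.018) were lower. futsch, Dhc64C, unc-104, Khc and tau changed sign there, to values between -0.18 and -0.04 that did not pass the threshold. The trend also moved the median of all genes to -0.05 in both comparisons. With it removed, 48.9% of all genes were called against WT and 31.1% against C24.

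**Figure D5:**
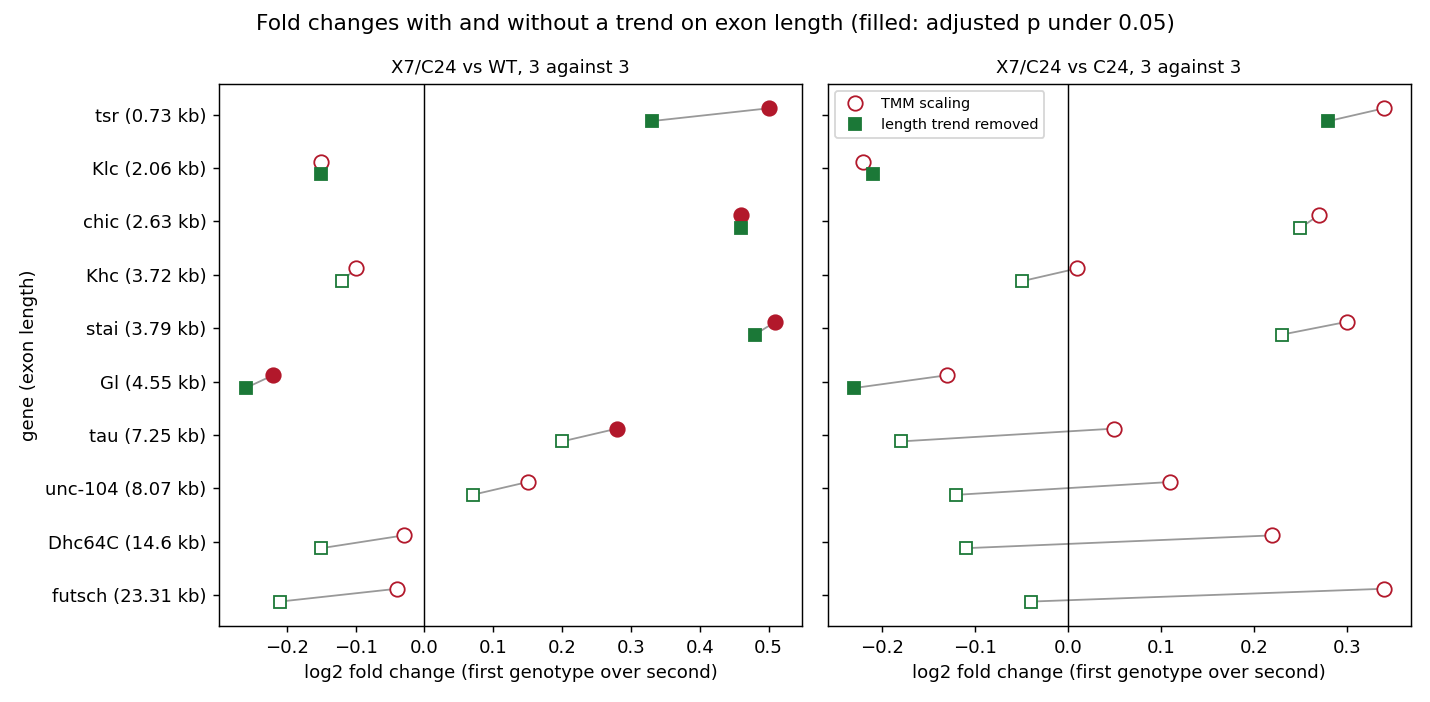
Log2 fold change of the 10 genes (rows, ordered by exon length) in X7/C24 over WT (left) and over C24 (right), with TMM scaling (circles) and with the length trend removed (squares), filled at an adjusted p under 0.05. In the left panel tsr moves from 0.50 to 0.33 and chic stays at 0.46, and in the right panel futsch moves from 0.34 to -0.04.

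Other genes of axonal transport and the cytoskeleton were taken from 6 lists with 143 genes, of which 141 were in the table. In X7/C24 against WT, 31 of the 136 genes tested were higher and 23 were lower, or 39.7%, close to the 42.3% of all genes. Actins and actin regulators were higher in 16 and lower in 1 of 44 genes, with a median log2 fold change of 0.11, and kinesins were higher in 0 and lower in 8 of 20, with a median of -0.18, against 21.2% of all genes in each direction and a median of -0.00. The counts of the actin list moved to 14 higher and 7 lower with the length trend removed, to 21 and 6 without WT_5 and to 1 and 0 with X7/C24_4, and those of the kinesins to 0 and 10, 0 and 8, and 0 and 5. These settings were chosen after seeing the data. HSPC300, a subunit of the SCAR complex that drives actin branching, averaged 16.9 CPM in X7/C24 and 9.34 CPM in WT (log2 fold change 0.86 ± 0.0944, SE, adjusted p = 0.000366). qua, a villin-like actin bundler, averaged 7.07 and 3.77 CPM (0.91 ± 0.149, SE, adjusted p = 0.00214). Sra-1, another subunit of the SCAR complex, was the gene of this list that was lower (-0.20, adjusted p = 0.0342).

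Among the kinesins, the lower genes with the smallest adjusted p were spindle motors of dividing cells. ncd averaged 93.6 CPM in X7/C24 and 146 CPM in WT (log2 fold change -0.65 ± 0.0522, SE, adjusted p = 0.000106), and Klp67A 74.5 and 100 CPM (-0.43, 0.000298). Of 7 neuroblast markers, 1 was higher and 5 were lower in X7/C24, against 21.2% of all genes in each direction. Their summed levels were 2295 to 2487 CPM in X7/C24 and 1849 to 2563 CPM in WT, and their part in the lower kinesins was not tested.

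Of the 20 genes for dynein, dynactin and their cofactors, 4 were higher and 3 lower in X7/C24 than in WT. The dynein light chain gene robl averaged 52.6 CPM in X7/C24 and 36.7 CPM in WT (log2 fold change 0.52, adjusted p = 0.00595), and Lis-1, a dynein regulator, 675 and 528 CPM (0.35, 0.016). Spindly, which recruits dynein to kinetochores, averaged 37.8 and 51.3 CPM (-0.44, 0.000784), and CG12042 32.9 and 39 CPM (-0.25, 0.00652).

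Cargo adaptors and organelle transport genes were higher in 6 and lower in 2 of 19. The kinesin adaptor gene syd averaged 187 CPM in X7/C24 and 154 CPM in WT (log2 fold change 0.28, adjusted p = 0.00351), and Appl, the fly amyloid precursor-like gene, 2461 and 2009 CPM (0.29, 0.00599). Nmnat, which protects axons from degeneration, was lower (-0.26, 0.0225), as was the myosin VI gene jar (-0.15, 0.0409).

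Tubulins were higher in 2 and lower in 4 of 10. betaTub60D averaged 280 and 162 CPM in X7/C24 and WT (log2 fold change 0.79, adjusted p = 0.000437) and alphaTub85E 3.46 and 1.87 CPM (0.88, 0.0136), while alphaTub84D (-0.33, 0.00519) and the nucleating gamma-tubulin gammaTub23C (-0.33, 0.00102) were lower. Microtubule-binding and severing proteins were higher in 3 and lower in 5 of 23. Jupiter (0.36, 0.00496) and the kinase gene par-1 (0.15, 0.04) rose, and the katanin subunit gene kat80 (-0.34, 0.000997) and mud (-0.33, 0.00682) fell.

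Against C24, 5 of these 136 genes were higher and 9 lower in X7/C24, or 10.3%, against 13.5% of all genes. Kinesins were higher in 1 and lower in 6 of 20, with Kif3C higher (27.9 CPM in X7/C24 and 18.1 CPM in C24, log2 fold change 0.62, adjusted p = 0.038) and Klp61F (-0.42, 0.0131) and ncd (-0.36, 0.0137) lower. qua (1.10, 0.00392), Act87E (0.86, 0.0218), betaTub60D (0.72, 0.00689) and Myo10A (0.92, 0.0266) were higher, and Spindly (-0.79, 0.000702), hk (-0.30, 0.0299) and gammaTub23C (-0.28, 0.0446) lower. Markers were called in this comparison too, beside the 13.5% of all genes. All 6 hemocyte markers were higher (median log2 4.89, 149 to 300 CPM in X7/C24 and 46.5 to 68.9 CPM in C24). All 6 ring gland markers were too (2.89, 676 to 1045 against 94.6 to 144 CPM). So were 3 of 7 fat body markers (0.84), 2 of 10 imaginal disc markers (0.29) and 2 of 9 muscle markers (0.82). Of 10 glial markers 1 was higher and 2 were lower, and of 7 neuroblast markers 1 was higher and 1 lower. Of 14 neuronal markers 1 was higher, while 1 salivary gland and 1 midgut marker were lower. X7/C24_4, which this fit left out, had 37.5 CPM of the hemocyte and 96.9 CPM of the ring gland markers. The part of all these cell types in the genes named was not tested. Without C24_6, 16 genes were higher and 19 lower, where 28.2% of all genes were called. In C24 against WT none of the 135 genes tested was called by edgeR with 3 libraries a group. At an unadjusted p under 0.05 there were 8, against 687 of all 9394 genes tested. DESeq2 called 3 of the 135 and 112 genes in all, and limma-voom 0 and 36. With 2 libraries a group Spindly (log2 fold change 0.35, adjusted p = 0.0384) and nudE (0.27, 0.0441) were higher and ncd was lower (-0.31, 0.0384) in C24, or 2.22% of 135 genes against 2.23% of all genes.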

How the data were processed

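RNA of dissected larval CNS was sequenced as paired reads from poly-A selected libraries without strand information. The authors filtered reads by quality, aligned them to BDGP5 with BWA, removed duplicates and counted pairs per gene with HTSeq in union mode. The deposited counts are whole numbers without normalization. The tables of size-factor-scaled values were not used. Groups came from sample titles, and rounds and kit sets from the study's methods, where the kit of 1 X7/C24 library is not clear, so that values with a kit set term rest on an uncertain assignment. Lengths of merged exons were taken from BDGP6 gene models, which covered 13153 of 13872 genes by identifier and 276 by symbol (96.8% in all). tau, stai and unc-104 were matched by symbol, and Gl is named DCTN1-p150 there.

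Counts were tested in R 4.3.3 with the quasi-likelihood test of edgeR 4.0.16 (TMM scaling, filterByExpr, Benjamini-Hochberg adjustment over all genes tested, threshold 0.05), as C24 against WT with 3 and 2 libraries a group, and X7/C24_1 to X7/C24_3 against WT and against C24. The test was tried on simulated data. Alternatives used DESeq2 1.42.0, limma 3.58.1, other scalings and filters, a length trend, kit set and replicate terms, a joint fit and libraries left out. In the joint fit the added libraries formed a single group, without X7/C24_4. With 2 libraries a group that added group mixed genotypes. Counts of the 6 gene lists under 4 of these settings were added after seeing the data. Log2 CPM used a prior count of 0.5. Libraries numbered 5 and 6 in both C24 and WT did not deviate together (correlations -0.12 and -0.19) and were not taken as pairs.

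The 10 genes and all lists were chosen with earlier results of these data known. Besides them the text names Smn, 4 marker genes, for each gene the one with the highest correlation among genes whose log2 CPM averaged 3 or more, and for each list and comparison up to 2 rising and 2 falling genes with the smallest adjusted p with an average log2 CPM of 1 or more. Coordinates and sequences of the earlier build were not used here.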

Additional observations from a re-analysis of the deposited data

Results flagged for a closer look

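Within each genotype the highest and lowest library of each of the 10 genes was compared with the rest, in 30 groups of 4, 6 or 7 libraries. A library was singled out where its gap to the nearest other library took an unusually large part of the range, which chance gives in about 1 in 20 groups.

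Among the X7/C24 libraries, unc-104 stood at 61.7 RPKM in X7/C24_4, against 107 to 112 in the other 3. Among the 7 C24 libraries C24_1 was low for tau (0.498 RPKM, against 12.7 to 15.2), for Klc (31.2, against 109 to 122) and for stai (24.1, against 170 to 276). Among the 6 WT libraries WT_2 was low for Klc (36.8 RPKM, against 92.8 to 117) and for stai (38.1, against 141 to 189). C24_1 and WT_2 are the libraries with the lowest summed neuronal markers, at 125 and 347 CPM. The part of other tissues in these values was not tested.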

How the results depend on the processing

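The levels of futsch, Dhc64C and other long genes depend on the library. X7/C24 was sequenced in another round than WT and C24, so that genotype and round cannot be told apart, and the number of libraries limits the change that can be detected. Counts below are of genes at an adjusted p under 0.05.

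In C24 against WT with 3 libraries a group, 37 genes were called, against 112 with DESeq2, 10 with at least 10 counts in every library, 127 with the length trend removed, 81 in a joint fit, 11 with a kit set term, 1 with all 13 libraries and 1 with a term for the round. With 2 a group, 214 were called, against 346 with DESeq2, 106 with total counts, 42 with no filter and 134 with at least 10 counts. The count was 362 with the length trend removed, 1196 with the kit set term and 0 in the joint fit, whose added group mixes genotypes. The 2 of the 10 genes called there became 1 with total counts, 0 with no filter, 0 in the joint fit and 6 with the kit set term, and Smn passed the threshold with the length trend removed (-0.26) and with the kit set term (-0.22). For X7/C24 against WT the 4087 genes became 761 and the 5 of the 10 genes 0 with X7/C24_4. For X7/C24 against C24 the 1280 genes became 2839 with the length trend removed, 2042 in the joint fit, 752 with the kit set term (the kit of 1 X7/C24 library is uncertain) and 33 with X7/C24_4, and the 0 of the 10 genes became 1 with DESeq2, 3 with the length trend removed and 1 in the joint fit. Smn was then at -0.83 with X7/C24_4 and no longer called.

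With the replicate block, 14 genes were called in C24 against WT with 3 a group and unc-104 was at -0.05. With libraries numbered 5 and 6 alone, 15 genes were called with the block and 5 without it, none of the 10 genes in either, and unc-104 was at -0.05 and -0.04. The shared numbers were not taken as pairs.

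Signs changed in C24 against WT for futsch (0.41) and Dhc64C (0.11) with all 13 libraries and a round term. In X7/C24 against WT they changed for unc-104 (-0.01) with X7/C24_4 and Dhc64C (0.00) with limma-voom. In X7/C24 against C24 they changed with the length trend removed for futsch (-0.04), tau (-0.18), Khc (-0.05), unc-104 (-0.12) and Dhc64C (-0.11), with X7/C24_4 for futsch (-0.03), tau (-0.02), Khc (-0.07), unc-104 (-0.05) and Dhc64C (-0.08), and with total counts for tau (-0.03) and Khc (-0.07). The cause was not tested. Without WT_1, WT_2 and C24_1 the highest over the lowest library was 23 for futsch, 9.44 for Dhc64C, 2.06 for chic, 2 for unc-104, 1.96 for stai, 1.47 for tau and 1.22 for Klc, and with total counts Klc averaged 117 RPKM in WT.

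With 1 library left out at a time, 5 to 27 genes were called in C24 against WT with 3 a group, 22 to 2214 with 2 a group, 2846 to 4792 in X7/C24 against WT and 461 to 2707 in X7/C24 against C24. Of the 10 genes 0 to 0, 0 to 7, 2 to 5 and 0 to 4 were called in these comparisons, and Smn ranged from -0.27 to -0.18 with 2 a group. Values that crossed 0 were unc-104 (-0.04 to 0.17) and Dhc64C (-0.46 to 0.02) with 3 a group, futsch (-0.55 to 0.02) with 2 a group, futsch (-0.26 to 0.14) and Dhc64C (-0.19 to 0.08) in X7/C24 against WT, and futsch (-0.02 to 0.78), tau (-0.00 to 0.09), Khc (-0.06 to 0.06), unc-104 (-0.02 to 0.20) and Dhc64C (-0.05 to 0.44) in X7/C24 against C24. Of 865 values under alternatives, with libraries left out included, 716 were labelled as unchanged. For fold changes this meant the same direction and side of the threshold. Counts of calls and ratios between libraries had to stay within a set factor, and mean levels in WT to move by less than their SD.

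Counts of the 6 lists were rerun under settings chosen after seeing the data. In X7/C24 against WT 31 higher and 23 lower genes became 40 and 33 without WT_5, 28 and 41 with the length trend removed and 2 and 7 with X7/C24_4. In X7/C24 against C24 they became 12 and 27 with the length trend removed and 0 and 1 with X7/C24_4.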
